A study of Mus musculus with 56 samples.

Results

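The genes described here are the cytochrome P450 (P450) genes of families 1 to 4. They were taken by name alone, as every symbol of the liver gene table that begins with Cyp1, Cyp2, Cyp3 or Cyp4 followed directly by a letter. The rule found 54 of the 12259 genes in that table, of which 2 belong to family 1, 34 to family 2, 4 to family 3 and 14 to family 4. Another 11 genes of the table are P450 genes of other families. The GENCODE M21 annotation of the mouse genome (GRCm38) holds 81 protein-coding genes with names of this pattern, and 50 of them were in the liver table. A position could be found under the same name for 52 of the 54 members, on 9 chromosomes.

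RNA was sequenced from liver, muscle, testis, cerebellum, cortex and hippocampus of wild-type (WT) mice and of mice labelled Fmr1 KO (KO), with 3 samples per genotype and tissue. Fmr1 encodes FMRP, an RNA-binding protein of translation control. N2a cells, a mouse neuroblastoma line, received either siRNA to Fmr1 (siFmr1, 3 samples) or non-targeting siRNA (siNT, 2 samples). A second N2a experiment of 15 samples combined siRNA with a plasmid, in groups of 3: siNT pcDNA, siFmr1 pcDNA, siMbnl1 pcDNA, siFmr1 with FLAG-nuclear MBNL1, and siMbnl1 with FLAG-cytosolic MBNL1. The control plasmid is pcDNA, siMbnl1 targets Mbnl1, and MBNL1 is a splicing regulator. The sources used here give no strain, sex or age of the mice, and do not say whether the samples of a group came from separate animals or cultures. The p-values therefore measure only the spread between these samples, which may be technical.

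P450 enzymes are haem proteins, mostly of the endoplasmic reticulum, that use electrons from P450 reductase to put an oxygen atom into their substrates. Families 1 to 3 oxidise drugs, plant compounds, steroids and arachidonic acid, and family 4 oxidises the tail end of fatty acids. The liver is their main site. There, nuclear receptors that sense foreign compounds, bile acids and lipids set the transcription of many members. In rodents the pattern of growth hormone release makes several of them male-biased or female-biased.

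The liver libraries held 13230785 to 16168225 counts. Fmr1 was at 23.6 ± 3.45 CPM (counts scaled to library size; SD, n = 3) in WT and 7.70 ± 0.0686 in KO livers (log2 fold change -1.61, adjusted p = 0.00312). All 12 hepatocyte marker genes were listed, with summed levels of 104937 to 114243 CPM in WT and 111343 to 130925 in KO, and 0 were called by edgeR (1 at an unadjusted p under 0.05, 1 by DESeq2). The Y-linked genes Ddx3y, Uty, Kdm5d and Eif2s3y were detected in both groups, with summed levels of 145 to 190 CPM in WT and 172 to 184 CPM in KO, and 0 of the 4 passed the test by edgeR (0 at an unadjusted p under 0.05, 0 by DESeq2). In bulk tissue, fewer cells of a type and less RNA per cell cannot be told apart.

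In WT liver the members made up 2.65% to 2.90% of all counts, and in KO liver 3.01% to 3.45%. In TPM, the authors' deposited measure per transcript length, 27 of the 54 members reached 100 TPM in WT, 38 reached 10 TPM and 7 stayed under 1 TPM. The 5 highest members held 59.8% of the TPM of all members. Cyp2e1, the ethanol- and acetone-oxidising P450, had the highest WT level at 6834 ± 1308 TPM, which was rank 19 among the 12259 genes. Cyp3a11, the main steroid and drug oxidase of mouse liver, was next at 3777 ± 378 TPM (rank 33), and Cyp2d9, a male-biased testosterone hydroxylase, followed at 2045 ± 50.8 TPM (rank 63).

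KO and WT livers differed in 4 members: Cyp2c69, Cyp2c40 and Cyp3a11 rose and Cyp4a12a fell. Calls rest on the quasi-likelihood test of edgeR with an adjusted p (Benjamini-Hochberg, over all 11928 genes tested) under 0.05. These are 4 of the 50 members tested, beside 0.411% of all tested genes (49, of which 20 were higher and 29 lower). Cyp2c53-ps, Cyp2d11, Cyp2s1 and Cyp4f18 were too low to be tested. The median log2 fold change of the 50 members was 0.04, with 28 above 0 and 22 below, and that of all tested genes was -0.0037.

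Less strict criteria reached more members. An unadjusted p under 0.05 was reached by 13 members, beside 11.4% of all genes. WT and KO samples did not overlap for 14 of the 50 tested members, 10 of them higher and 4 lower in KO, beside 17.3% of all genes. DESeq2 called 9 members, 8 higher and 1 lower, beside 2.26% of all genes, adding Cyp2c29, Cyp2c37, Cyp2c38, Cyp2c68 and Cyp3a13. In the authors' deposited table, 10 members had an adjusted p under 0.05 (8 higher and 2 lower in KO), beside 2.06% of its genes. They were the 9 that DESeq2 called here and, in the authors' deposited table alone, Cyp1a2, lower in KO (adjusted p = 0.0402).

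**Figure D1:**
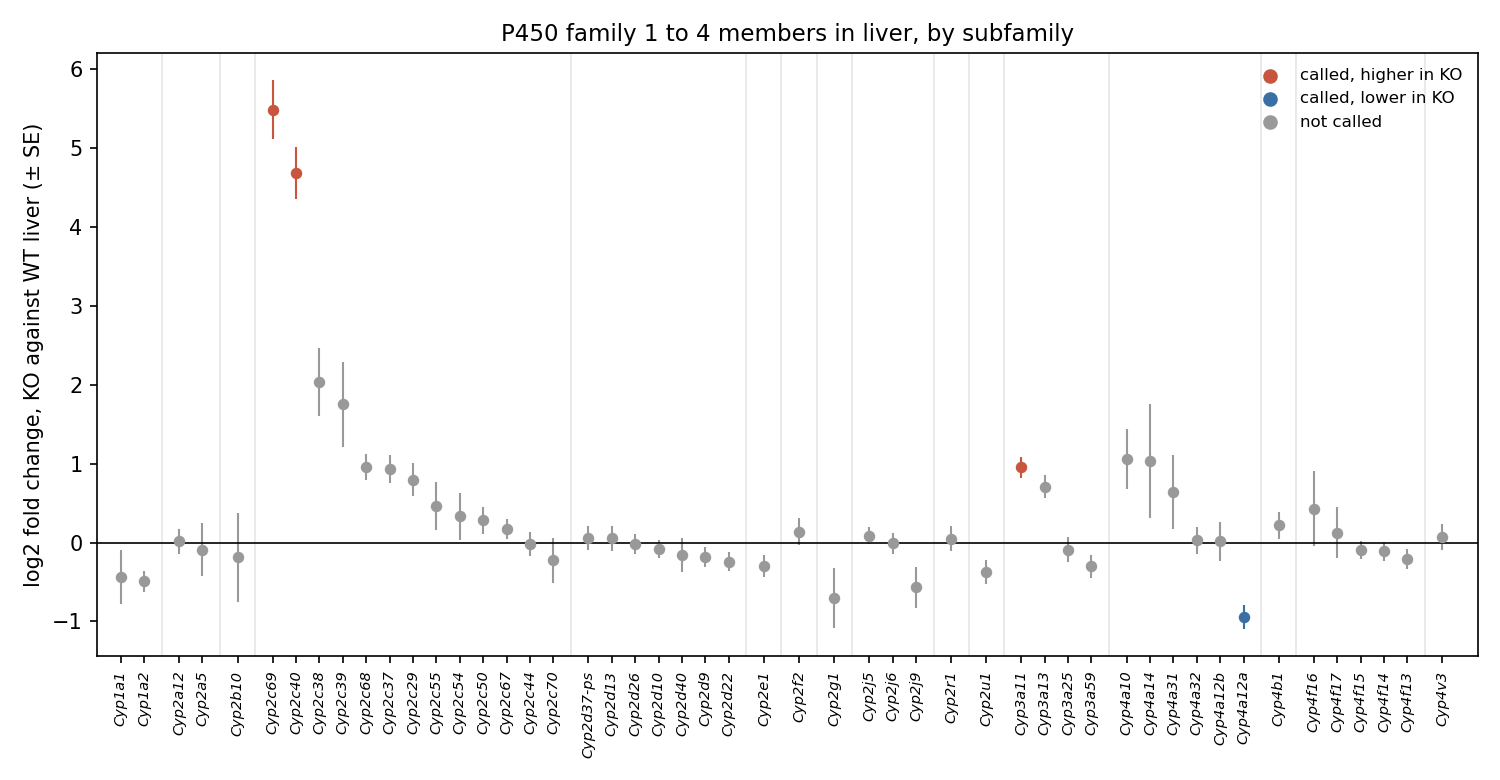
Log2 fold change (± SE) of the 50 tested members in KO against WT liver (3 samples each), grouped by subfamily and coloured by the edgeR call. Cyp2c69 (5.49) and Cyp2c40 (4.68) lie far above the other members, Cyp3a11 is called at 0.95, and Cyp4a12a is the only member called lower, at -0.94.

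The summed CPM of the members was 28188 ± 1447 in WT and 31825 ± 2745 in KO (SD, n = 3), a ratio of 1.13, and the sums of the 3 KO livers (29750 to 34937) lay above those of the 3 WT livers (26621 to 29473). The Cyp3a sum had a KO to WT ratio of 1.77 and its share of the members' CPM went from 20.3% to 31.8%. The Cyp2c sum had a ratio of 1.34, and those of Cyp2d, Cyp4a, Cyp2e and Cyp1a had ratios of 0.918, 0.819, 0.812 and 0.711. The sums of the groups did not overlap for Cyp1a, Cyp2c, Cyp2d, Cyp3a and Cyp4a, and they overlapped for Cyp2e, whose share went from 24.5% to 17.6%. The order of the largest shares thus differed between the genotypes, with Cyp2e first in WT and Cyp3a first in KO. With 3 samples against 3, a two-sided exact permutation test of such a sum cannot go below a p of 0.1.

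The Cyp2c subfamily, which makes epoxides and hydroxy acids from arachidonic acid besides oxidising drugs and steroids, held both of the largest log2 fold changes. Cyp2c69 was at 0.340, 0.365 and 0.756 CPM in the WT livers and at 16.4, 18.5 and 30.2 CPM in the KO livers, from 5 to 10 counts per WT library and 238 to 441 per KO library. Cyp2c40, an arachidonic acid hydroxylase, was at 4.90, 1.95 and 3.02 CPM in WT and at 65.1, 80.3 and 108 CPM in KO. Every KO library was far above every WT library for both genes. Cyp2c69 rose by 5.49 ± 0.37 on the log2 scale (SE; adjusted p = 0.000702, edgeR) and Cyp2c40 by 4.68 ± 0.33 (adjusted p = 0.000702). Both stayed low beside the abundant members: in KO liver they had mean levels of 21.4 and 81.5 TPM. Both were called in each of the 6 fits that left out 1 library, with log2 fold changes of 5.17 to 5.91 for Cyp2c69 and 4.39 to 5.10 for Cyp2c40.

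Cyp2c40 and Cyp2c69 are neighbours on the minus strand of chromosome 19, at 39767071 to 39812814 and 39842814 to 39886799. With Cyp2c67 (39608842 to 39649051) and Cyp2c68 (39688834 to 39741054) they form a stretch of 277958 bases that holds 4 annotated Cyp2c genes. The transcripts of these 4 genes are near-copies: Cyp2c40 was 97.8% identical to Cyp2c69, 98.0% to Cyp2c68 and 97.6% to Cyp2c67. Of all windows of 100 bases along the transcript, 44.1% in Cyp2c40, 36.3% in Cyp2c69, 23.7% in Cyp2c67 and 19.8% in Cyp2c68 occur word for word in another gene. How the counts are divided among the 4 genes is therefore uncertain. With 1 transcript compared per member, 21 of 52 had no such window.

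The sequences before the starts of these 4 genes are shown because they are nearly as alike as the transcripts, while the fold changes of the 4 genes were unequal. They are RefSeq promoter windows of GRCm38.p6 on the minus strand, written 5′ to 3′. They lie at chr19:39886800-39887019 (Cyp2c69), chr19:39812815-39813064 (Cyp2c40), chr19:39741102-39741351 (Cyp2c68) and chr19:39649052-39649292 (Cyp2c67), with bases inside the GENCODE gene left out. Capitals mark matches to the motifs searched for, on either strand, within the bases shown. TATAAA also occurred past the RefSeq start, outside the bases shown, in Cyp2c69 (10 bases after the start) and Cyp2c40 (40 bases after).
Cyp2c69: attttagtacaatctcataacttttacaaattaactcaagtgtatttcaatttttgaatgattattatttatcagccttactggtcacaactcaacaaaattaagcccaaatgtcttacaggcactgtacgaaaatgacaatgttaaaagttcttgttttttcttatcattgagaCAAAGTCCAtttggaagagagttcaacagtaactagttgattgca
Cyp2c40: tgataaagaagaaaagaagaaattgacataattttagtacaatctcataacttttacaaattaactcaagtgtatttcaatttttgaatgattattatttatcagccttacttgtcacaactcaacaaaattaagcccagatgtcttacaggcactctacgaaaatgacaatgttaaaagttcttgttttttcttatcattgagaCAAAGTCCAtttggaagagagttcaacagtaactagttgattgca
Cyp2c68: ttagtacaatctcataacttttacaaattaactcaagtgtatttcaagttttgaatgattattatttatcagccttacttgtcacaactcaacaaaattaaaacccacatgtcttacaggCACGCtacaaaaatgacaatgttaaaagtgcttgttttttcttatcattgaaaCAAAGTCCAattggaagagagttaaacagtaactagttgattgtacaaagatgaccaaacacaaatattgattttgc
Cyp2c67: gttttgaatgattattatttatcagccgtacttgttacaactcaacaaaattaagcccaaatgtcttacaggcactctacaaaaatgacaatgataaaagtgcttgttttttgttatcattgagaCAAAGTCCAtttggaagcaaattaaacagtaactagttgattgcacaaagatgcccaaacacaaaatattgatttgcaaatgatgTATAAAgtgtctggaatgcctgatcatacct
The Cyp2c69 and Cyp2c40 windows were identical at 217 of 220 aligned bases (98.6%), and the other pairs at 92.9% to 95.4%. All 4 hold CAAAGTCCA, a motif of the liver factor HNF4 alpha, beginning 75, 45, 77 and 125 bases before the RefSeq start in the order shown. The RefSeq starts of the 4 genes are not placed at the same point of the shared sequence.

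Promoter windows (250 bases before to 50 bases after the start) were found for 40 of the 54 members. CAAAGTCCA occurred in 6 of them (15%), against 0.475% of all 32851 windows: Cyp2c40, Cyp2c67, Cyp2c68, Cyp2c69, Cyp2c70 and Cyp3a11. The TATA box TATAAA occurred in 21 (52.5%), against 13.6% of all windows. GCGTG, the core bound by the dioxin receptor AHR, occurred in 8 (20%), against 32.4% of all windows. TTCNNNGAA, a STAT5 motif, occurred in 2 (5%, against 8.3%). TGACCTTTG, a direct-repeat motif of nuclear receptors, occurred in 2 of the same subfamily, Cyp3a25 and Cyp3a59 (5%, against 0.478%). TTATGTAA, a motif of the clock-controlled PAR bZIP factors, occurred in 0 (against 0.938%). All were searched on both strands, and a match is a description of letters, not a bound site.

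Among the 4 near-copies, the 2 genes that were abundant in WT moved less on the log2 scale than the 2 that were scarce. In mean CPM the largest rise was that of Cyp2c68, from 156 to 304. Cyp2c67 was at 238 ± 11.6 CPM in WT and 268 ± 30.0 in KO (log2 fold change 0.17 ± 0.12, adjusted p = 0.665). Cyp2c68 was at 133, 186 and 150 CPM in WT and 273, 289 and 350 in KO, without overlap, and missed the threshold (0.96 ± 0.16, adjusted p = 0.0504). DESeq2 called it, and so did edgeR without the filter on low counts. Summed over the 4 genes, the level went from 398 ± 33.6 to 678 ± 97.2 CPM, with every KO library above every WT library (0.77 ± 0.14). The sum was not called (adjusted p = 0.0698). Within the sum, Cyp2c40 went from 0.852% to 12.3%, Cyp2c69 from 0.122% to 3.14% and Cyp2c68 from 39.1% to 44.9%, while Cyp2c67 went from 59.96% to 39.7%. Summing was chosen after the values had been seen.

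**Figure D2:**
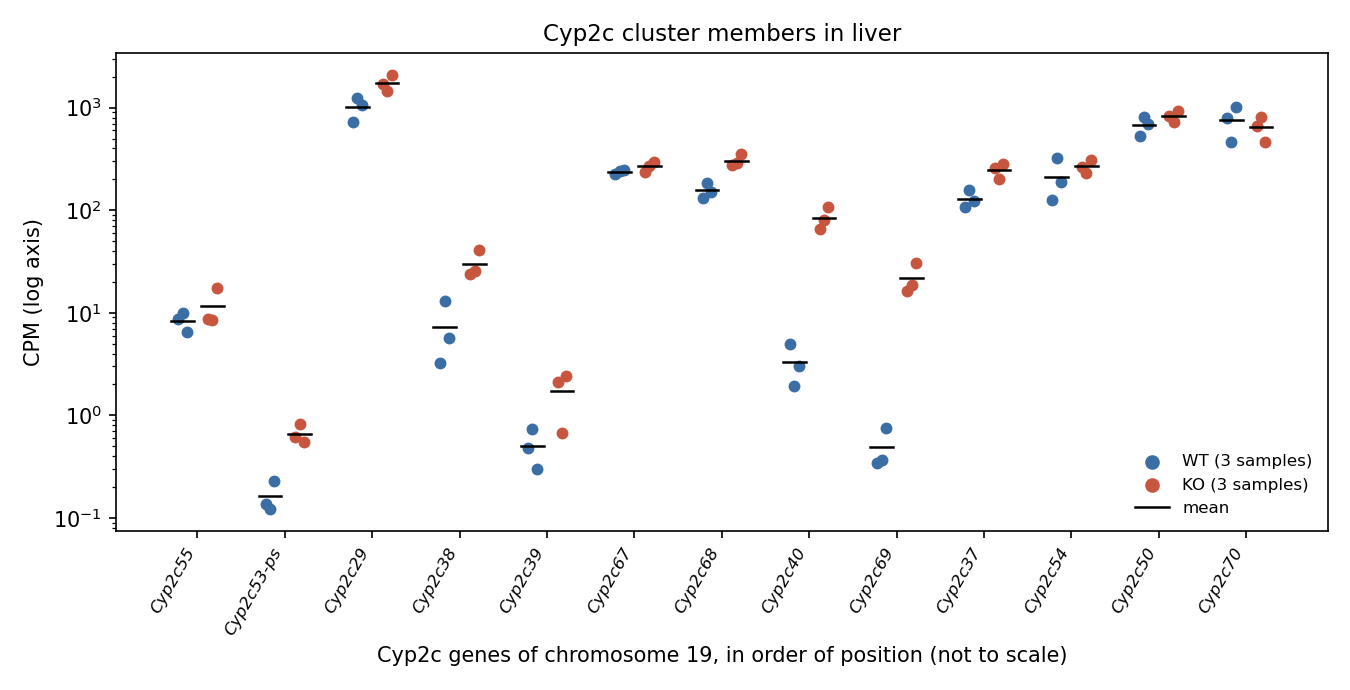
CPM (log axis) of the 13 Cyp2c members on chromosome 19 in each WT and KO liver, in order of position, with lines at the group means. Cyp2c40 and Cyp2c69, which are neighbours, are separated most (3.29 against 84.3 CPM and 0.487 against 21.7 CPM), while Cyp2c67 on the same side of the cluster and Cyp2c70 at its end overlap.

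Other Cyp2c members lay higher in KO as well but did not pass the edgeR test, while DESeq2 called Cyp2c29, Cyp2c37, Cyp2c38 and Cyp2c68. The 13 Cyp2c members with a position span 1180315 bases of chromosome 19. Of the 13 tested in the subfamily, 11 had a log2 fold change above 0, 6 did not overlap between the groups, all 6 higher in KO, and the median log2 fold change was 0.79. Cyp2c38 was at 3.27, 12.9 and 5.67 CPM in WT and 23.9, 25.3 and 41.0 in KO (2.03 ± 0.43, adjusted p = 0.106). Cyp2c37, an arachidonic acid hydroxylase, was at 108, 159 and 122 CPM in WT and 256, 203 and 283 in KO (0.93 ± 0.18, adjusted p = 0.0856). Cyp2c29, an abundant epoxygenase that responds to phenobarbital, was at 727, 1254 and 1062 CPM in WT and 1709, 1468 and 2097 in KO (0.79 ± 0.21, adjusted p = 0.182). For each of these 3 genes the lowest KO library was above the highest WT library, and the WT libraries spread widely for Cyp2c38. Cyp2c29 and Cyp2c38, which are adjacent members of the table on the chromosome, had 87.9% identical transcripts.

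Of the remaining Cyp2c members, the pseudogene Cyp2c53-ps was too low to be tested, with 2, 2 and 3 counts in WT and 9, 11 and 8 in KO, without overlap. Its annotated position overlaps that of Cyp2c29 on the same strand. The others overlapped between the genotypes. Cyp2c39, at 0.503 ± 0.215 CPM in WT and 1.74 ± 0.93 in KO, had 1 KO library within the WT range (1.75 ± 0.53, adjusted p = 0.246). Cyp2c55, Cyp2c54 and Cyp2c50 had log2 fold changes of 0.46, 0.33 and 0.28. Cyp2c44, an epoxygenase, was at 466 ± 73.2 CPM in WT and 460 ± 71.1 in KO. Cyp2c70, which hydroxylates bile acids to muricholic acids in mice, was at 760 ± 281 and 649 ± 179 CPM (-0.23 ± 0.29, adjusted p = 0.823).

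In the Cyp3a subfamily, Cyp3a11 rose and the other 3 members were not called by edgeR. Cyp3a11 was at 4581, 4958 and 4394 CPM in WT and 8741, 7946 and 10322 CPM in KO, with all KO libraries well above all WT libraries. It rose by 0.95 ± 0.13 on the log2 scale (adjusted p = 0.0227), and in KO its mean of 7507 TPM was above the 5665 TPM of Cyp2e1. Only 0.312% of its windows occur in another gene. Cyp3a13, a member expressed also outside the liver, was at 158, 157 and 214 CPM in WT and 274, 302 and 289 in KO, without overlap (0.71 ± 0.15, adjusted p = 0.0996 by edgeR, 0.00339 by DESeq2). Cyp3a25 (816 ± 139 and 766 ± 115 CPM) and Cyp3a59 (80.0 ± 3.32 and 65.0 ± 11.8 CPM) overlapped between the groups. The Cyp3a11 call was lost without the third WT library (adjusted p = 0.0635), the first KO library (0.118) or the third KO library (0.114). Its log2 fold change stayed between 0.85 and 1.03 over the 6 fits that left out 1 library.

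The Cyp4a subfamily, fatty acid hydroxylases of which several are targets of the lipid sensor PPAR alpha, held the only member that fell. Cyp4a12a, a male-biased arachidonic acid hydroxylase, was at 1081, 878 and 1254 CPM in WT and 522, 606 and 544 CPM in KO. The groups did not overlap, and the level fell by 0.94 ± 0.15 on the log2 scale (adjusted p = 0.0367). Its near-copy Cyp4a12b, with a transcript 98.3% identical, was at 170 ± 56.9 CPM in WT and 171 ± 28.8 in KO. Both lie on the plus strand of chromosome 4, Cyp4a12a at 115299046 to 115332815 and Cyp4a12b at 115411624 to 115439034, and 35.8% of the windows of Cyp4a12a occur in another gene. The sum of both went from 1241 ± 242 to 729 ± 69.7 CPM (-0.77 ± 0.16) and was not called (adjusted p = 0.102). The Cyp4a12a call was lost without the third WT library (adjusted p = 0.0678), without the first KO library (0.260), without the second (0.159) or without the third (0.215).

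Cyp4a10, Cyp4a14 and Cyp4a31 were higher in KO in the means, with a wide spread in WT, and were not called. Cyp4a32 (23.9 ± 5.10 CPM in WT and 24.4 ± 2.40 in KO) differed little, as did Cyp4a12b. Cyp4a10 was at 70.3, 250 and 119 CPM in WT and 271, 289 and 354 in KO (1.06 ± 0.38, adjusted p = 0.338). Cyp4a14 was at 13.8, 175 and 36.2 CPM in WT and 147, 112 and 204 in KO (1.04 ± 0.73, adjusted p = 0.651). Cyp4a31, at much lower levels, followed the same pattern over the WT libraries, with 3.34, 13.0 and 3.25 CPM. The second WT library was the highest WT library for Cyp4a10, Cyp4a14 and Cyp4a31. Without it, the number of members called in liver was 10 instead of 4, and Cyp4a10, Cyp4a14, Cyp4a31, Cyp2c37, Cyp2c38 and Cyp2c68 were among them. Of 19 other PPAR alpha target genes tested, 0 were called by edgeR (2 at an unadjusted p under 0.05, and by DESeq2 Angptl4 and Fabp1). Their summed levels overlapped, at 7356 to 9673 CPM in WT and 7951 to 8245 in KO.

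**Figure D3:**
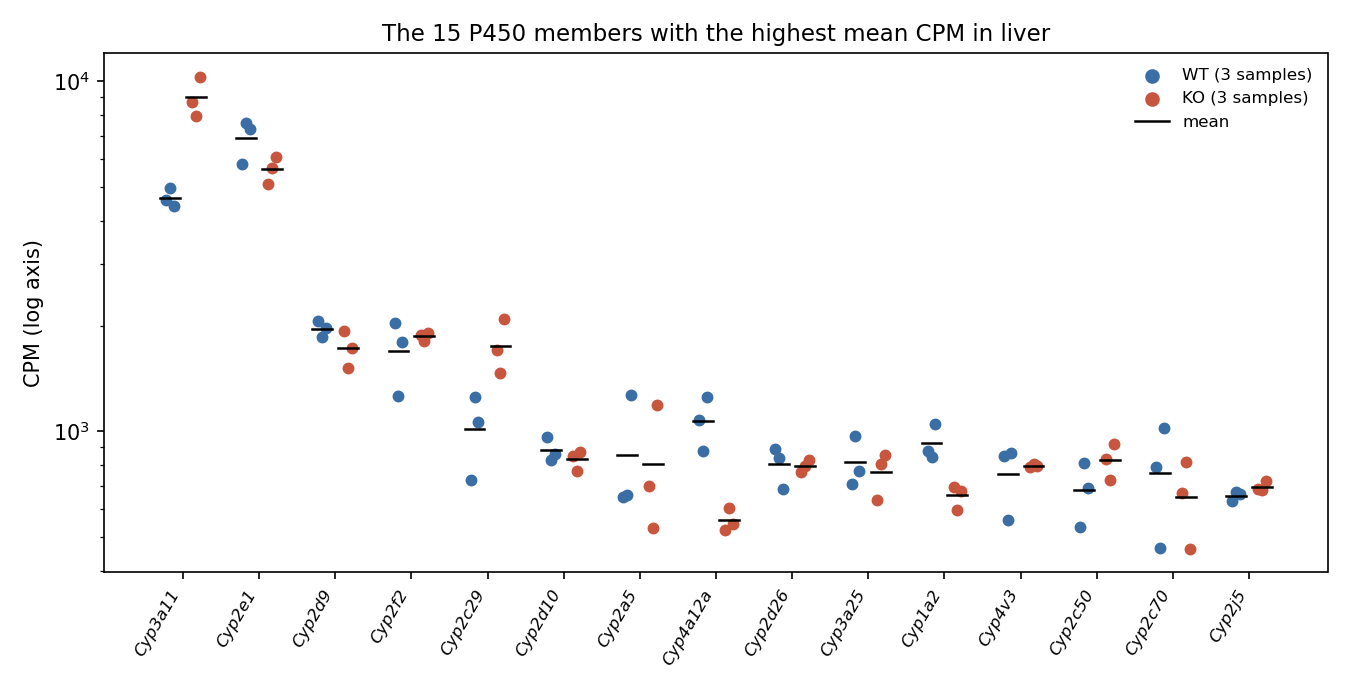
CPM (log axis) of the 15 members with the highest mean CPM over the 6 liver libraries, with lines at the group means of 3 samples. Cyp3a11 and Cyp4a12a separate the genotypes in opposite directions (4644 against 9003 CPM and 1071 against 557 CPM), whereas Cyp2e1, Cyp2d9, Cyp2f2 and most others overlap.

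Family 1 and the other abundant members of family 2 outside Cyp2c were called by neither edgeR nor DESeq2. Cyp1a2, which oxidises caffeine and aromatic amines, was at 880, 843 and 1048 CPM in WT and 695, 597 and 677 in KO, without overlap (-0.49 ± 0.13, adjusted p = 0.176). Cyp1a1, the AHR-induced member, was near 1 CPM in both groups (1.497 ± 0.316 and 1.10 ± 0.320). Cyp2e1 was at 6913 ± 954 CPM in WT and 5612 ± 488 in KO, with 1 WT library inside the KO range (-0.30 ± 0.14, adjusted p = 0.452). Cyp2u1, a long-chain fatty acid hydroxylase, was lower in all KO libraries (26.9, 21.3 and 19.2 against 16.9, 17.3 and 17.8 CPM) and was not called (-0.37 ± 0.15, adjusted p = 0.410). Cyp2d22 at 271 ± 3.72 and 229 ± 26.8 CPM and Cyp2j5 at 654 ± 20.5 and 695 ± 23.2 CPM were the other members tested and not called by edgeR that had no overlap, at log2 fold changes of -0.24 and 0.09. Cyp1a2 and Cyp2e1 are expressed around the central vein, and 18 other genes of that zone had summed levels of 5424 to 6020 CPM in WT and 4647 to 5041 in KO, without overlap. Of these 18, 0 were called by edgeR (2 at an unadjusted p under 0.05, 0 by DESeq2), and the part of the zone in the P450 values was not tested.

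The steroid- and drug-oxidising Cyp2d members were close between the genotypes. Cyp2d9 was at 1966 ± 101 CPM in WT and 1730 ± 209 in KO, Cyp2d10 at 883 ± 69.97 and 832 ± 54.6, and Cyp2d26 at 805 ± 109 and 796 ± 32.8, and over the 7 tested Cyp2d members the log2 fold changes ranged from -0.24 to 0.06. Cyp2a5, the coumarin hydroxylase, varied more within the genotypes than between them, with 650, 658 and 1270 CPM in WT and 697, 529 and 1192 in KO. Cyp2f2, which activates naphthalene, was at 1700 ± 396 and 1870 ± 52.4 CPM, and Cyp4v3, a fatty acid hydroxylase, at 758 ± 174 and 797 ± 7.09 CPM. Cyp2b10, the classical target of the xenobiotic receptor CAR, was low in both groups (1.70 ± 1.27 and 1.51 ± 0.878 CPM). The 5 tested Cyp4f members, which degrade leukotrienes and fatty acids, had log2 fold changes from -0.21 to 0.43.

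Genes that serve or regulate these enzymes were compared by lists. Of the 11 P450 genes of other families, 0 were called by edgeR (3 at an unadjusted p under 0.05, 1 by DESeq2, Cyp39a1). Of 15 electron donors and haem synthesis genes, 0 were called (3 at an unadjusted p under 0.05, 1 by DESeq2, Hmox1). Of 25 transcription factors known to regulate P450 genes, 0 were called (7 at an unadjusted p under 0.05, and by DESeq2 Cebpa, Esr1 and Foxa1). Cebpa, a liver bZIP factor, had mean levels of 488 CPM in WT and 316 in KO (adjusted p = 0.0953), and Foxa1 31.95 and 17.9 CPM (adjusted p = 0.157). The receptors Nr1i2 (66.1 and 65.3 CPM), Nr1i3 (50.3 and 59.9 CPM) and Ppara (292 and 297 CPM) and the factor Hnf4a (618 and 646 CPM) had adjusted p values from 0.721 to 0.977.

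Of 26 flavin monooxygenases, carboxylesterases and other oxidases, 0 were called by edgeR (9 at an unadjusted p under 0.05, 1 by DESeq2, Aldh1a1). Of 47 conjugating enzymes tested, 1 was called: Ugt1a9, a glucuronosyltransferase, rose from 66.7 ± 8.84 to 132 ± 8.01 CPM (log2 fold change 0.99, adjusted p = 0.0227). The unadjusted p was under 0.05 for 11 genes of this list, and DESeq2 called Ugt1a9 higher and Gstt2, Sult5a1 and Tpmt lower. Of 26 male-biased liver genes outside the members, 1 was called lower: Hsd3b2, a steroid dehydrogenase, went from 94.0 to 40.1 CPM (-1.23, adjusted p = 0.0051). Among the 26, 5 reached an unadjusted p below 0.05, and DESeq2 called Elovl3, Hsd3b2 and Moxd1, all lower. Of 13 female-biased liver genes outside the members that were tested, 0 were called (1 at an unadjusted p under 0.05, 0 by DESeq2). Of 19 clock and PAR bZIP genes, the repressor Bhlhe41 was called, lower in KO (13.5 and 1.59 CPM, adjusted p = 0.00123), with 4 genes at an unadjusted p under 0.05 and Dbp also called lower by DESeq2. Acute-phase genes moved with genotype in their sums, which were 18272 to 25016 CPM in WT and 26383 to 37677 CPM in KO without overlap. Of these 22 genes 0 were called by edgeR (10 at an unadjusted p under 0.05, 3 by DESeq2). The part of the acute-phase difference in the P450 values was not tested.

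Outside the liver the members were few and low. All listed symbols of the pattern, including some not in the liver table, made up 0.00511% to 0.0174% of the counts of the brain, muscle, testis and first N2a libraries. Of the 54 members, 31 were listed in no other gene table of counts, and Cyp2u1, Cyp4f13 and Cyp4v3 were listed in all of them. Among the 23 members listed in liver and at least 1 other tissue, 19 had their highest mean WT level in TPM in liver. The exceptions were Cyp2j9, Cyp2s1, Cyp4f16 and Cyp4f17.

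Cyp2j9, a brain-expressed arachidonic acid epoxygenase, was at 75.2 ± 3.59 TPM in cerebellum, 40.9 ± 5.47 in cortex, 38.2 ± 2.28 in hippocampus, 10.3 ± 3.9998 in liver and 1.46 ± 0.214 in muscle. The cortex and hippocampus values did not differ beyond their spread, and the cerebellum values were above all others. Cyp2d22 followed the order liver (158 ± 11.1 TPM), cerebellum (43.0 ± 1.88), hippocampus (24.9 ± 1.05), cortex (21.97 ± 1.96), muscle (7.01 ± 2.69) and testis (4.83 ± 0.531). Cyp4f16 was at 7.24 ± 0.131 TPM in cerebellum and 1.22 ± 0.602 in liver, and Cyp2s1 at 4.97 ± 0.380 in cortex and 0.423 ± 0.153 in liver. Cyp4f17 in cerebellum (4.80 ± 0.483 TPM) and liver (4.13 ± 1.74) did not differ beyond its spread. Libraries of brain and of the other tissues were made by different protocols, so levels across them carry that difference.

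**Figure D4:**
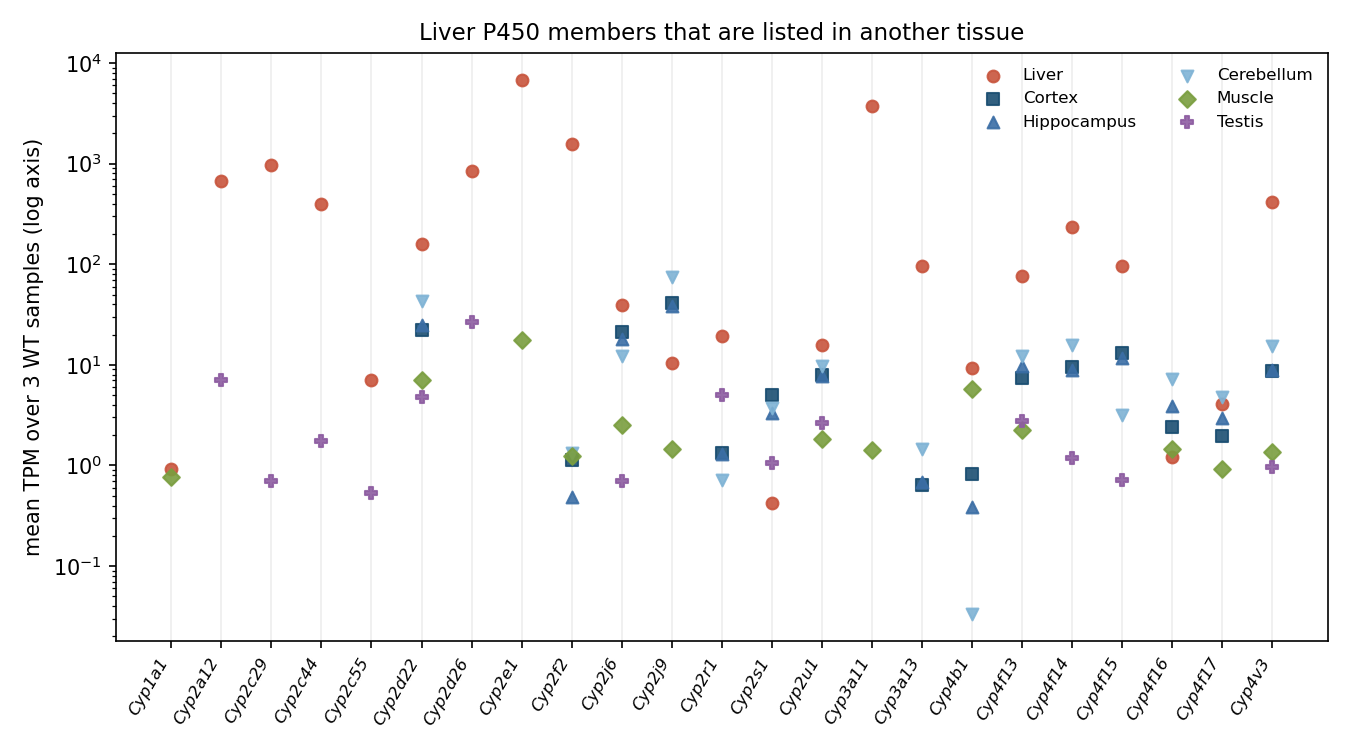
Mean TPM over 3 WT samples (log axis) of the 23 liver members listed in at least 1 other tissue, by tissue. Liver is highest for 19 members, by far for Cyp2e1 (6834 TPM, against 17.7 in muscle), and Cyp2j9 is highest in cerebellum (75.2 TPM, against 10.3 in liver).

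No P450 gene of the pattern was called in the 3 brain regions, where 19 such symbols were listed. In cortex 0 of 17 tested were called by edgeR, beside 0.0203% of all genes (1 at an unadjusted p under 0.05, beside 21%, and 0 by DESeq2). The 1 was Cyp2d22, at 21.6 ± 1.95 CPM in WT and 18.6 ± 1.14 in KO (adjusted p = 0.219). In hippocampus 0 of 16 were called, beside 0.209% of all genes (1 at an unadjusted p under 0.05, beside 12.5%, and 0 by DESeq2). The 1 was Cyp2j12, not in the liver table, at 3.33 ± 0.175 and 2.03 ± 0.517 CPM (adjusted p = 0.247). In cerebellum 0 of 16 were called, beside 0.226% of all genes (1 at an unadjusted p under 0.05, beside 8.72%, and 0 by DESeq2). The 1 was Cyp3a13, at 1.47 ± 0.225 CPM in WT and 0.784 ± 0.0824 in KO without overlap (adjusted p = 0.176).

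The most abundant brain members were close between the genotypes. Cyp2j9 had log2 fold changes of 0.03 in cortex, 0.06 in hippocampus and 0.03 in cerebellum. Cyp2j6, another arachidonic acid epoxygenase of this subfamily, had 0.20 in cortex and 0.07 in hippocampus. Cyp4v3 was at 15.6 ± 0.281 CPM in WT and 16.3 ± 0.721 in KO cerebellum.

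In muscle, Cyp2f2 rose, from 1.44, 1.65 and 1.09 CPM in WT to 3.21, 2.77 and 6.15 CPM in KO, without overlap. The log2 fold change was 1.54 ± 0.36 (adjusted p = 0.0480), and this was 1 of 14 tested genes of the pattern, beside 4.04% of all genes. The call was lost without any 1 of the 6 libraries (adjusted p = 0.0577 to 0.184), and the log2 fold change ranged from 1.10 to 1.74 in those fits. Cyp2e1, the most abundant P450 of the pattern in muscle, was at 17.2, 15.7 and 23.3 CPM in WT and 25.3, 28.7 and 59.9 in KO, without overlap and not called (1.02 ± 0.30, adjusted p = 0.0826). The third KO library was the highest for both genes.

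Markers of other cell types also moved in muscle. Of 5 macrophage (Kupffer cell) markers tested, 4 were called higher in KO, with summed levels of 73.4 to 83.1 CPM in WT and 136 to 144 in KO. Of 8 fibroblast markers tested, 4 were called higher (sums of 5560 to 6313 and 6308 to 7517 CPM). Of 5 skeletal muscle markers 1 was called lower (sums of 115515 to 135648 and 101046 to 121433 CPM). Hepatocyte markers, of which 5 of 12 were listed, summed to 4.43 to 55.0 CPM in WT and 9.52 to 18.1 in KO. The part of these cell types in the Cyp2f2 value was not tested. In muscle, Fmr1 was at 14.6 ± 2.81 CPM in WT and 9.53 ± 1.27 in KO and was not called (adjusted p = 0.0734).

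In testis, 0 of 16 tested genes of the pattern were called by edgeR, beside 4.27% of all genes. At an unadjusted p under 0.05 there were 0, beside 18.3% of all genes, and DESeq2 called 0. The highest by CPM were Cyp2d26 (23.0 ± 2.16 in WT and 22.9 ± 1.26 in KO), Cyp4f39 (18.7 ± 2.08 and 19.5 ± 1.41), an omega-hydroxylase of very long fatty acids, and Cyp1b1 (18.0 ± 1.86 and 17.8 ± 1.09), an oestrogen and retinoid oxidase. Cyp4f39 and Cyp1b1 were not in the liver table.

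In the first N2a experiment, 8 members were listed and 0 of the 7 tested were called by edgeR, beside 0% of all genes. At an unadjusted p under 0.05 there were 0, beside 0.386% of all genes, and DESeq2 called 0. The 2 siNT libraries differed widely: Fmr1 was at 77.7 CPM in the first and 22.4 in the second. Cyp2c55, the highest of the pattern, was at 9.78 and 28.2 CPM in siNT and at 12.9, 18.5 and 19.4 CPM in siFmr1. Cyp4f16 was at 13.4 and 23.0 CPM in siNT and at 13.7, 13.4 and 22.7 in siFmr1. For both genes the siFmr1 libraries lay between or near the siNT libraries. Of the 7 tested, 1 had no overlap between the groups, beside 7.82% of all genes. It was Cyp4f13, at 9.05 and 7.49 CPM in siNT against 5.94, 4.26 and 4.25 in siFmr1 (unadjusted p = 0.0896, edgeR).

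In the co-transfection experiment, siFmr1 pcDNA and siMbnl1 pcDNA were each compared with the same 3 siNT pcDNA samples, so the comparisons share their controls. The table lists 86 symbols of the pattern, and 19 had a mean of at least 1 normalized count. The fold changes are on the scale of log2(normalized count + 1), from limma. After siFmr1, 3 of the 19 were called, beside 37% of all genes. After siMbnl1, 4 of the 19 were called, beside 32.8% of all genes.

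Cyp2ab1, a P450 of little-known function that is not in the liver table, was at 22.4, 19.9 and 17.8 normalized counts in siNT pcDNA and at 1.13, 0 and 0.871 in siFmr1 pcDNA, where 1 library is listed at 0. It fell by 3.72 ± 0.59 (SE; adjusted p = 0.000151). In siMbnl1 pcDNA it was at 0.903, 3.62 and 6.93 and fell by 2.35 ± 0.59 (adjusted p = 0.00629). All 12 libraries with siFmr1 or siMbnl1 lay far below the 3 siNT pcDNA libraries, including those with nuclear MBNL1 (4.52 ± 2.49) and cytosolic MBNL1 (3.00 ± 1.78).

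Cyp4v3 fell after siFmr1, from 65.0, 73.8 and 56.5 to 39.7, 25.2 and 25.3 normalized counts (-1.11 ± 0.27, adjusted p = 0.00458). It was at 56.4 ± 5.95 in siMbnl1 pcDNA. With siFmr1 and nuclear MBNL1 it was at 27.0 ± 9.41, which overlapped the siFmr1 pcDNA samples. Cyp4f16, the second most abundant P450 of the pattern here, was at 656, 606 and 673 in siNT pcDNA and fell in both comparisons, to 462, 543 and 545 after siFmr1 (-0.32 ± 0.10, adjusted p = 0.0209) and to 431, 502 and 475 after siMbnl1 (-0.46 ± 0.10, adjusted p = 0.00275). The call after siFmr1 was lost without the third siNT pcDNA library (adjusted p = 0.0607) or the first siFmr1 pcDNA library (0.112), and when only the 2 groups were fitted (0.0727).

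Cyp4f17 fell after siMbnl1, from 55.9, 53.8 and 68.9 to 35.2, 37.4 and 32.5 (-0.74 ± 0.21, adjusted p = 0.0140), and its call was lost without the third siNT pcDNA library (adjusted p = 0.0533). Cyp4f40, a Cyp4f gene not in the liver table, rose after siMbnl1, from 20.1, 11.96 and 16.7 to 43.3, 26.6 and 40.2 (1.13 ± 0.34, adjusted p = 0.0167). Its call was lost without the second siNT pcDNA library (adjusted p = 0.0574), the first siMbnl1 pcDNA library (0.0695) or the third (0.0547). With only the 2 groups fitted, neither Cyp4f17 (adjusted p = 0.0687) nor Cyp4f40 (0.0551) was called. Cyp2c55, the most abundant P450 of the pattern in these cells, was at 820 ± 160 in siNT pcDNA, 693 ± 14.5 in siFmr1 pcDNA and 738 ± 65.3 in siMbnl1 pcDNA and was not called. The liver genes Cyp2c40 and Cyp2c69 were listed at 0 in siNT, siFmr1 and siMbnl1 pcDNA samples.

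**Figure D5:**
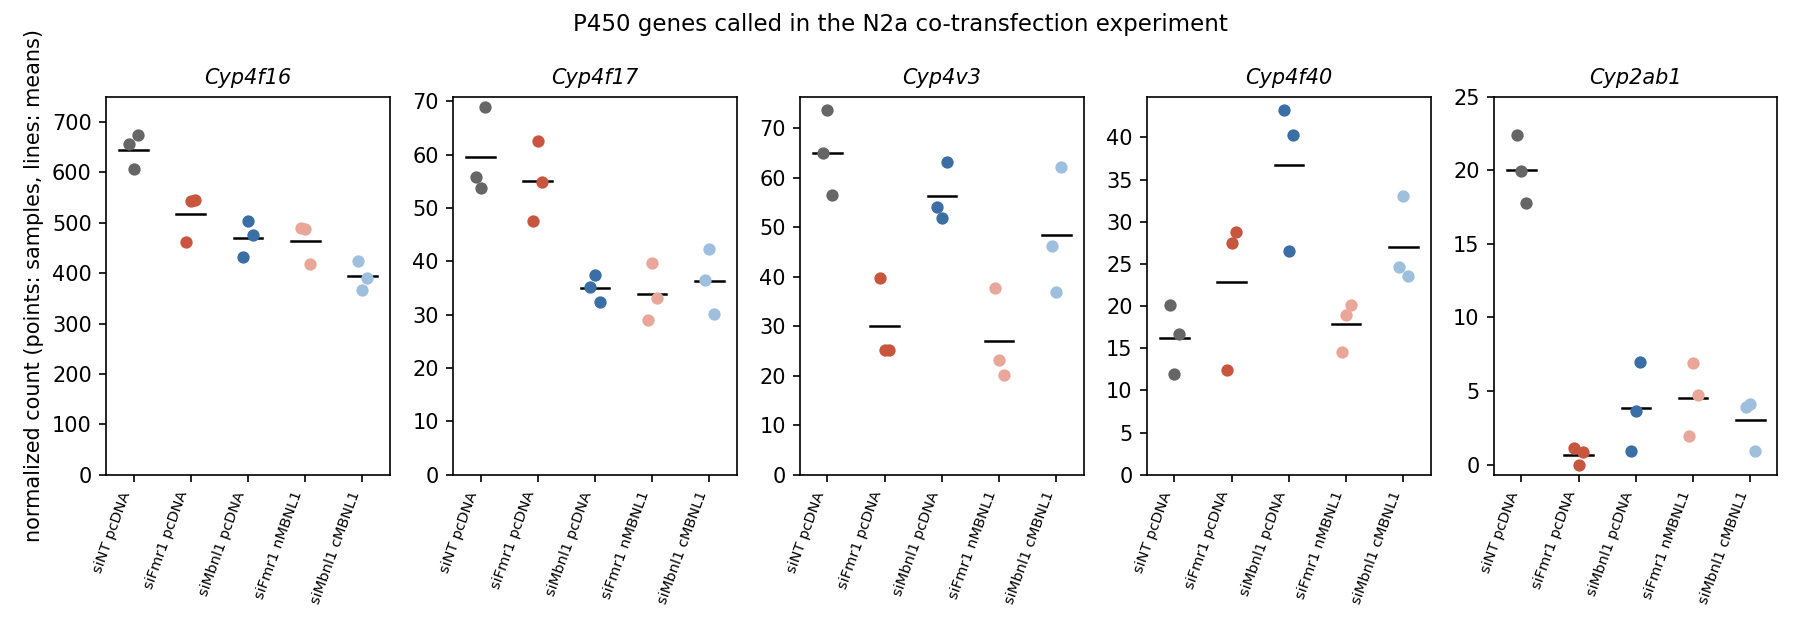
Normalized counts of the 5 P450 genes called in the N2a co-transfection experiment, as points for the 3 samples of each of 5 groups and lines at their means, each panel with its own axis. Cyp2ab1 is low in every group with siFmr1 or siMbnl1 (means 0.668 to 4.52, against 20.0 in siNT pcDNA), and Cyp4v3 is low in both groups with siFmr1 (means 30.1 and 27.0).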

How the data were processed

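Read counts and TPM per gene for tissues and the first N2a experiment were deposited by the authors, per the file headers. The submitters' processing notes name Trimmomatic 0.39, Bowtie2 2.3.5, STAR 2.6.1, RSEM 1.3.1, DESeq2 1.16.1 and GRCm38. Deposited log2 fold changes and adjusted p-values of the authors were used only where their table is named. For co-transfection the authors deposited a normalized signal per gene (normalized counts), and the sources used here do not give its scaling. In the muscle table, 4 per-sample columns that match no labelled sample were not used.

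Counts were tested with edgeR 4.0.16 (quasi-likelihood, filterByExpr, TMM, samples of the comparison alone) in R 4.3.3, with DESeq2 1.42.0 as an alternative. Co-transfection values were tested with limma 3.58.1 on log2(value + 1), with 5 groups in 1 fit and genes of mean at least 1. Adjustment (Benjamini-Hochberg, 0.05) covered all genes tested. Levels are CPM with TMM-scaled library sizes (mean ± SD, n = 3 unless stated), and log2 fold changes carry the SE. The steps were tested on simulated data. Transcripts and positions are from GENCODE M21, promoter windows from RefSeq, aligned with Biopython 1.88. Figures used matplotlib 3.10.9.

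Groups were taken from sample titles or treatments. Named genes were those called, the 15 highest in liver, up to 8 uncalled ones without overlap and at least 50 counts, the 3 highest of each other table, and the members of subfamilies with a call. Members and lists were chosen with earlier results of these data known. Alternatives were another scaling, no filter, DESeq2, a replicate block, a fold change of at least 1 (log2), another pseudocount, 1 library left out, and sums of near-identical genes.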

Additional observations from a re-analysis of the deposited data

Results flagged for a closer look

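The means of Cyp3a13 differed in opposite directions in 2 tissues. In liver all 3 KO libraries were above all 3 WT libraries (log2 fold change 0.71, adjusted p = 0.0996 by edgeR). In cerebellum all 3 KO libraries were below all 3 WT libraries (log2 fold change -0.91, adjusted p = 0.176), at a mean of 37 counts per library. Groups without overlap were found for 17.3% of all genes in liver and 14.7% in cerebellum. The genotypes overlapped in cortex (log2 fold change 0.47) and hippocampus (-0.36). Neither the liver nor the cerebellum change was called by edgeR, and DESeq2 called the one in liver (adjusted p = 0.00339). The difference between the tissues was not tested.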

How the results depend on the processing

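The number of members called in liver was 4. It was 9 with DESeq2, 5 without the filter on low counts (Cyp2c68 in addition) and 2 with the replicate number as a block. It was 2 with a log2 fold change of at least 1 required, and between 2 and 10 when 1 library was left out. Without the second WT library it was 10, and without the first or the third KO library 2. Cyp2c40 and Cyp2c69 were called in all 12 fits of the liver members. With the replicate block, Cyp3a11 (adjusted p = 0.102) and Cyp4a12a (adjusted p = 0.134) were not called. The same numbers did not pair the liver samples (correlations of -0.019, -0.087 and -0.193). In muscle the 1 call was lost with the replicate block (0 called) and in the fits without 1 library (0 called in each of 6). After siMbnl1, 2 genes were called when only the 2 groups were fitted and 2 with a log2 fold change of at least 1. After siFmr1 the block gave 3 calls, and after siMbnl1 5. The count was 0 in every alternative for cortex, hippocampus, cerebellum, testis and the first N2a experiment. Directions of uncalled liver members turned when 1 library was left out: log2 fold changes ran from -0.49 to 0.30 for Cyp2a5, -0.49 to 0.045 for Cyp2c70, -0.12 to 0.063 for Cyp2d26, -0.045 to 0.29 for Cyp2f2, -0.18 to 0.047 for Cyp3a25, -0.25 to 0.18 for Cyp4a12b and -0.12 to 0.18 for Cyp4v3. The causes were not tested. The filter on low counts left Cyp2c53-ps, Cyp2d11, Cyp2s1 and Cyp4f18 out of the test, and none of them was called without it.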
